A study of Mus musculus with 6 samples.

Results

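Whole brain of 12-week-old male C57BL/6 mice was examined for 10 genes of the integrated stress response, *Atf4*, *Ddit3*, *Ppp1r15a*, *Trib3*, *Chac1*, *Asns*, *Atf3*, *Sesn2*, *Psat1* and *Phgdh*, which encode the transcription factor ATF4 and products of genes that it controls. The genes were chosen by name, and all 10 were found among the 37310 genes of the count table. Of these, 8 passed the expression filter that left 13649 genes for testing. The Adar1 E861A/E861A *Ifih1*-/- group (E861A) was homozygous for a point mutation that leaves ADAR1, which converts adenosine to inosine in double-stranded RNA, without editing activity. The Adar1+/+ *Ifih1*-/- group (wild type) carried the normal Adar1. Both groups lacked *Ifih1*, which encodes MDA5, a cytosolic sensor of double-stranded RNA, so the wild-type group is not an unmodified mouse, and mice with an intact *Ifih1* were not analysed here. Each genotype had 3 libraries, each from 1 mouse. The comparison addressed whether transcripts of this pathway differed when ADAR1 could not edit and MDA5 was absent.

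In the integrated stress response, 4 kinases phosphorylate the α subunit of the translation initiation factor eIF2. PKR (*Eif2ak2*) responds to double-stranded RNA, PERK (*Eif2ak3*) to unfolded protein in the endoplasmic reticulum, GCN2 (*Eif2ak4*) to amino acid shortage and HRI (*Eif2ak1*) to heme shortage. Phosphorylated eIF2α lowers protein synthesis in general, while the *Atf4* mRNA is translated more, and ATF4 then raises transcription of genes for amino acid supply, for redox balance and for the end of the response. ATF4 is therefore set largely by translation. Neither protein nor phosphorylation was measured in these libraries, which report the transcripts alone.

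None of the 10 genes passed the test for a difference between genotypes. Of the 8 tested genes, 0 were called at an adjusted p-value under 0.05 (edgeR quasi-likelihood test, Benjamini-Hochberg adjustment over all tested genes), beside 69 of 13649 genes (0.506%), of which 56 were higher and 13 lower. DESeq2 and limma-voom also called 0. At an unadjusted p-value under 0.05 the count was 0 of 8, beside 9.01% of all tested genes, and under the replicate block it was 1 of 8 (*Psat1*), beside 15.2%. When replicate numbers entered as a block, 158 genes (1.16%) and 0 of the 8 were called. The 8 log2 fold changes, E861A over wild type, ran from -0.09 (*Psat1*) to 0.09 (*Ddit3*), 2 positive and 6 negative, with a median of -0.04 and standard errors of 0.05 to 0.17. The upper ends of their 95% intervals lay between 1.01-fold and 1.23-fold, and the lower ends between 0.743-fold and 0.952-fold. *Trib3* and *Atf3*, which were too low for the filter, had wider intervals that reached 1.66-fold and 1.30-fold. Intervals are per gene and are not adjusted over genes.

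**Figure D1:**
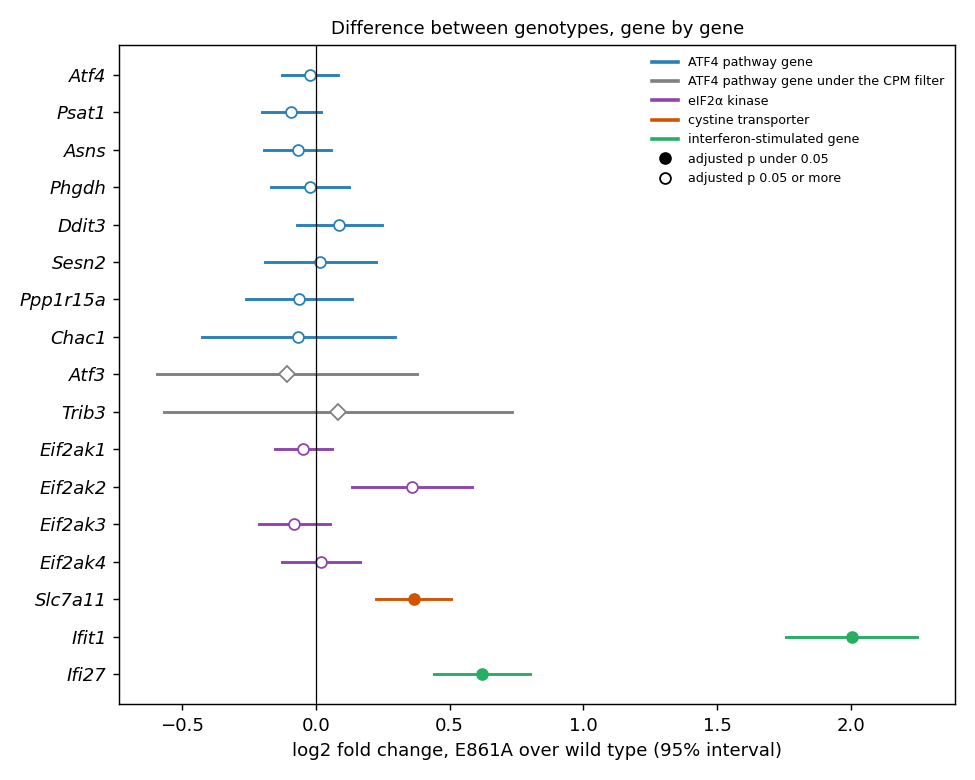
Log2 fold change of E861A over wild type (horizontal axis) with its 95% interval for the 10 ATF4 pathway genes, the 4 eIF2α kinases, Slc7a11 and 2 interferon-stimulated genes; filled symbols have an adjusted p-value under 0.05, and grey diamonds mark the genes under the expression filter. All 10 ATF4 pathway intervals include 0, whereas Slc7a11 (0.37), Ifi27 (0.62) and Ifit1 (2.00) are filled.

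Sequences at the gene starts were examined for the element that ATF4 binds together with C/EBP proteins. Its core, TGATGNAA, was searched on both strands from 250 bases before to 50 bases after each RefSeq start (GRCm38.p6, a later build than that of the counts). It was found for 4 of the 10 genes, in 36.4% of their 11 windows, beside 3.97% of 32851 windows over all genes. The matches are given 5′ to 3′ on the strand that reads the core, which is in capitals, with 10 bases on either side. *Slc7a11*, the amino acid transporter gene described further on, held a pair of cores and is shown for comparison with the pathway genes.
Trib3, chr2:152344029-152344056, plus strand: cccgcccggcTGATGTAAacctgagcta
Chac1, chr2:119351039-119351066, minus strand: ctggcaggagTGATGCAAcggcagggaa
Asns, chr6:7693215-7693242, minus strand: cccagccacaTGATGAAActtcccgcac
Atf3, chr1:191183426-191183453, plus strand: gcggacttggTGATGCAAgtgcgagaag
Slc7a11, chr3:50443662-50443689, minus strand: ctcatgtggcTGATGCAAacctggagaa
Slc7a11, chr3:50443643-50443670, plus strand: ggctgcatgaTGATGCAAattctccagg
The windows of *Atf4*, *Ddit3*, *Ppp1r15a*, *Sesn2*, *Psat1* and *Phgdh* did not hold these letters, which says nothing of ATF4 binding there or elsewhere. The core of the interferon-stimulated response element (GAAA, any 2 bases, GAAA) was searched in the same way because PKR is itself induced by interferon. It was found in 3.44% of all windows. Among the 10 pathway genes it was in 1 of 11 windows, that of *Ppp1r15a*, and among the kinases in 1 of 5, that of *Eif2ak2*. It was also in 5 of 8 windows of the interferon-stimulated genes below, 2 of 10 of the eIF2 machinery, 2 of 20 of the stress effectors and 2 of 16 of the immediate early genes. The *Eif2ak2* match, shown with that of *Ppp1r15a* in the same manner, lay within the first transcribed bases.
Ppp1r15a, chr7:45526469-45526498, minus strand: aaaataaaagGAAAGGGAAAtggcacggta
Eif2ak2, chr17:78882535-78882564, minus strand: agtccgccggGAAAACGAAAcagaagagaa
A match describes the sequence and not a bound site.

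The libraries held 26853488 to 36285305 counts in the E861A group and 35702138 to 38076753 in the wild-type group, so a gene with no count could lie at up to 0.0788 to 0.112 CPM (3 counts, counting error only). Neuronal, astrocytic and oligodendrocytic markers were abundant in every library. E861A replicate 1 stood apart in pituitary hormone transcripts, with 5 matched markers summing to 429.5 CPM against 1.28 to 3.35 CPM elsewhere. Without that library, 0 of the pathway genes were called and their adjusted p-values ran from 0.727 to 0.997. Summed choroid plexus markers were 216 to 333 CPM in E861A and 394 to 405 CPM in wild type, and endothelial markers 97.6 to 123 CPM and 125 to 150 CPM. Log2 fold changes were negative for 4 of 5 choroid plexus markers (*Kcnj13* was positive, 0.12) and for 5 of 5 endothelial markers. Over all tested genes 49.5% were positive. In either list 0 markers were called, beside 0.506% of all tested genes. At an unadjusted edgeR p-value under 0.05 were 2 of 5 choroid plexus and 3 of 5 endothelial markers, beside 9.01%. Under the replicate block 1 marker of these lists was called (*Ttr*, choroid plexus), beside 1.16%. *Adar* was present at 161 ± 7.38 CPM in E861A and 151 ± 31.6 CPM in wild type (SD, n = 3), and gene counts do not show its point mutation. *Ifih1* was listed at 38 to 56 counts per library and was under the expression filter. It was at 1.43 to 1.59 CPM in E861A and 1.12 to 1.31 CPM in wild type, without overlap (beside 14.2% of all tested genes). A fit with edgeR's own filter gave a log2 fold change of 0.36 ± 0.19 (SE) and an adjusted p-value of 0.665. In bulk tissue, fewer cells of a type and less RNA per cell cannot be told apart.

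The kinases upstream of ATF4 were called in 0 of 4 cases, beside 0.506% of all tested genes. PKR, the kinase activated by double-stranded RNA (*Eif2ak2*, ENSMUSG00000024079; mm9 chromosome 17, 79251904 to 79281913), was at 10.01, 11.7 and 12.3 CPM in E861A replicates 1 to 3 and at 8.76, 9.84 and 7.85 CPM in wild type. The 3 E861A libraries lay above all 3 wild-type libraries, a separation seen in 14.2% of all tested genes. Its log2 fold change was 0.36 ± 0.10 (SE), or 1.28-fold with a 95% interval of 1.10 to 1.498, with an unadjusted p-value of 0.00390 and an adjusted p-value of 0.264 by edgeR. An exact two-sided permutation test gave p = 0.1, the smallest that 3 against 3 libraries allow and the value of any gene without overlap. *Eif2ak2* shares 174 exon bases with a non-coding gene on the opposite strand, *Gm16825*. It was called when no expression filter was applied (adjusted p = 0.0191) and in none of the 14 other alternatives with a test, where adjusted p-values ran from 0.0765 to 0.876.

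HRI (*Eif2ak1*) was at 43.9, 45.7 and 42.5 CPM in E861A and 45.05, 45.5 and 46.1 CPM in wild type, a log2 fold change of -0.05 ± 0.05. *Eif2ak1* shares 487 exon bases with *Aimp2* and 172 with *Ankrd61*, both on the opposite strand. PERK (*Eif2ak3*) was at 29.5, 30.2 and 29.0 CPM against 32.5, 28.6 and 32.9 CPM (-0.08 ± 0.06). For GCN2 (*Eif2ak4*) the values were 34.0, 32.0 and 36.6 CPM against 35.4, 30.8 and 34.9 CPM (0.02 ± 0.07). The genotypes overlapped for these 3 kinases, and their adjusted p-values were 0.735 to 0.956. The 7 genes listed as activators and inhibitors of the kinases ran from -0.10 (*Nub1*) to 0.08 (*Dnajc3*, an inhibitor of PKR and PERK), with 0 called. *Nub1* lowers NEDD8 conjugates, and an action of it on the kinases was not tested. The next lowest value was -0.08 (*Gcn1l1*). Among 13 genes for eIF2, its exchange factor eIF2B and the eIF2α phosphatase, 0 were called, and log2 fold changes ran from -0.07 (*Eif2b4*) to 0.09 (*Eif2s2*, the β subunit of eIF2). The counts called among the 7 and the 13 genes stand beside 0.506% of all tested genes.

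**Figure D2:**
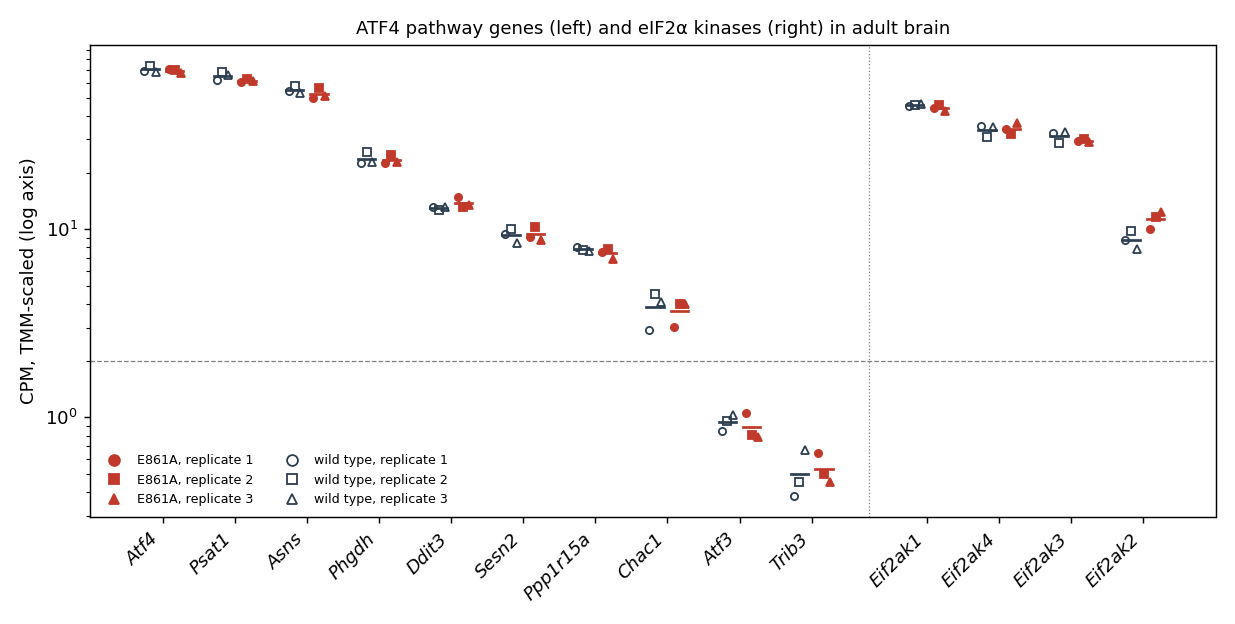
CPM of each library on a log axis for the 10 ATF4 pathway genes and the 4 eIF2α kinases; filled symbols are E861A, open symbols wild type, shapes give the replicate number, short bars are genotype means and the dashed line is the filter of 2 CPM. The 3 E861A libraries lie above the 3 wild-type libraries for Eif2ak2 (10.01 to 12.3 against 7.85 to 9.84 CPM), while the genotypes overlap for 9 of the 10 pathway genes.

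*Atf4* itself (ENSMUSG00000042406; chromosome 15, 80085614 to 80087970) was at 71.1, 70.1 and 67.7 CPM in E861A and at 69.7, 73.7 and 68.9 CPM in wild type. The 6 values were within 1.09-fold of each other and the genotypes interleaved. The log2 fold change was -0.02 ± 0.05, with a 95% interval of -0.13 to 0.08 and an adjusted p-value of 0.924.

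Transcription factors downstream of ATF4 were represented by *Ddit3* and *Atf3*. *Ddit3* (ENSMUSG00000025408; chromosome 10, 126727830 to 126733344) encodes CHOP, which links prolonged stress to cell death. It was at 14.8, 13.134 and 13.5 CPM in E861A and at 13.124, 12.7 and 13.13 CPM in wild type. *Ddit3* was the 1 pathway gene of the 8 tested whose genotypes did not overlap, beside 14.2% of all tested genes, and E861A replicate 2 exceeded the highest wild-type library by 0.0044 CPM. Its log2 fold change was 0.09 ± 0.07, with an interval of -0.07 to 0.25 and an adjusted p-value of 0.763 by edgeR. An exact permutation test gave p = 0.1, the value of any gene without overlap at 3 against 3 libraries. Without E861A replicate 1, the library with the pituitary transcripts, the log2 fold change was 0.03. *Ddit3* shares 68 exon bases with the methionyl-tRNA synthetase gene *Mars* on the opposite strand, which was at a mean of 30.6 CPM in E861A and 29.2 CPM in wild type.

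*Atf3* (ENSMUSG00000026628; chromosome 1, 192994175 to 193007219), a stress-induced repressor and activator of the same protein family, gave 31, 29 and 21 counts in E861A and 31, 36 and 37 in wild type. These correspond to 1.05, 0.809 and 0.790 CPM against 0.846, 0.960 and 1.03 CPM. *Atf3* was present in every library but under the filter, and its log2 fold change of -0.11 ± 0.23 (adjusted p = 0.931) comes from a second fit of 19366 genes with edgeR's own filter.

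Feedback within the pathway is given by *Ppp1r15a* and *Trib3*. *Ppp1r15a* (ENSMUSG00000040435; chromosome 7, 52778286 to 52781638) encodes GADD34, which brings a phosphatase to eIF2α and ends the response. It was at 7.56, 7.89 and 6.96 CPM in E861A and 8.08, 7.78 and 7.63 CPM in wild type. The genotypes overlapped, and the log2 fold change of -0.06 ± 0.09 had an interval of -0.26 to 0.14 and an adjusted p-value of 0.871. *Trib3* (ENSMUSG00000032715; chromosome 2, 152163158 to 152169768), a pseudokinase that dampens ATF4 and CHOP, was the least abundant of the 10. It had 19, 18 and 12 counts in E861A and 14, 17 and 24 in wild type, or 0.645, 0.502 and 0.451 CPM against 0.382, 0.453 and 0.670 CPM. Its highest and its lowest library were both wild type. In the second fit the log2 fold change was 0.08 ± 0.31, with an interval of -0.57 to 0.74 and an adjusted p-value of 0.965, so folds from 0.675 to 1.66 lay within its interval.

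*Chac1* and *Sesn2* act on redox balance and growth signalling. *Chac1* (ENSMUSG00000027313; chromosome 2, 119176965 to 119180117), which degrades glutathione, gave 3.02, 3.99 and 3.99 CPM in E861A and 2.92, 4.51 and 4.11 CPM in wild type. It was lowest in replicate 1 of both genotypes, and the spread within a genotype was larger than the difference between them (log2 fold change -0.07 ± 0.17, interval -0.43 to 0.29, adjusted p = 0.934). *Sesn2* (ENSMUSG00000028893; chromosome 4, 132047947 to 132066416), a leucine sensor that restrains mTORC1, was at 9.09, 10.3 and 8.80 CPM against 9.44, 10.1 and 8.49 CPM. It was highest in replicate 2 and lowest in replicate 3 of both genotypes, and the log2 fold change was 0.02 ± 0.10 (interval -0.19 to 0.22, adjusted p = 0.976).

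Per kilobase of exon, enzymes of amino acid synthesis were the most abundant transcripts after *Atf4*. *Asns* (ENSMUSG00000029752; chromosome 6, 7625169 to 7643254), which makes asparagine, was at 49.9, 56.2 and 51.0 CPM in E861A and 54.1, 58.1 and 52.7 CPM in wild type. The genotypes overlapped, with a log2 fold change of -0.07 ± 0.06, an interval of -0.19 to 0.06 and an adjusted p-value of 0.765. *Phgdh* and *Psat1* encode consecutive enzymes of serine synthesis. *Phgdh* (ENSMUSG00000053398; chromosome 3, 98117093 to 98143913) was at 22.5, 24.7 and 22.8 CPM against 22.6, 25.7 and 22.8 CPM, nearly the same value for each replicate number, and its log2 fold change was -0.02 ± 0.07 (interval -0.17 to 0.13, adjusted p = 0.954). *Psat1* (ENSMUSG00000024640; chromosome 19, 15979168 to 16021827) was at 60.4, 62.9 and 61.4 CPM against 62.2, 68.8 and 65.9 CPM. E861A replicate 2 lay above wild-type replicate 1, so the genotypes overlapped, and of the 8 tested genes *Psat1* had the lowest unadjusted p-value by edgeR (0.0945, adjusted p = 0.623). Its log2 fold change was -0.09 ± 0.05, with an interval of -0.20 to 0.02. *Psat1* was lower in E861A in all 3 same-numbered pairs, and under the replicate block the edgeR p-value was 0.0442 before and 0.314 after adjustment. Both genes have processed copies in the genome. The *Phgdh* transcript aligned over 96.5% of its length at 98.8% identity on chromosome 8, and that of *Psat1* over 74.4% at 89.2% on chromosome 11, so their levels are uncertain where reads could fall on either copy.

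On the same per-kilobase scale, mean levels over the 6 libraries fell in the order *Atf4* (40.7 CPM per kb), *Asns* (19.6), *Psat1* (15.0), *Phgdh* (9.46), *Ddit3* (7.82), *Sesn2* (2.70), *Ppp1r15a* (2.60), *Chac1* (2.29), *Atf3* (0.461) and *Trib3* (0.243). Libraries overlapped between *Sesn2* and *Ppp1r15a* and between *Ppp1r15a* and *Chac1*, and between no other neighbours in this order. The 4 genes with a core shown above lay at ranks 2, 8, 9 and 10. The median deviation of the 10 genes from their wild-type means, on the log2 scale, was -0.04, 0.01 and -0.07 for E861A replicates 1 to 3 and -0.04, 0.06 and -0.01 for wild type. Wild-type replicate 2 was the highest library for 5 of the 10 genes (*Atf4*, *Chac1*, *Asns*, *Psat1* and *Phgdh*), beside 18.5% of all tested genes.

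**Figure D3:**
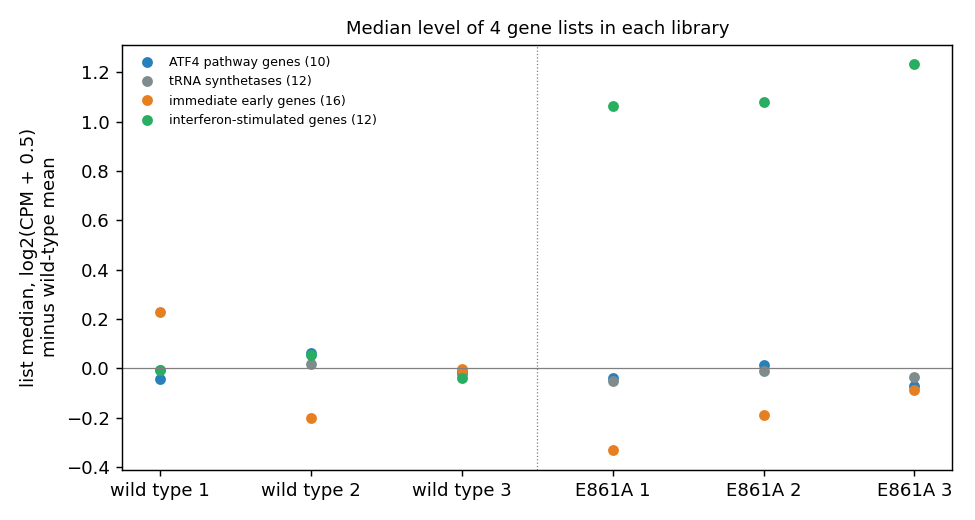
Median over each gene list of log2(CPM + 0.5) minus the wild-type mean of the gene (vertical axis), for each of the 6 libraries. The interferon-stimulated genes lie between 1.06 and 1.23 in the 3 E861A libraries, the ATF4 pathway genes between -0.07 and 0.06 in all 6, and the immediate early genes spread from -0.33 to 0.23 within and between genotypes.

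Further ATF4 targets were described as 4 lists, in which 43 of 48 genes were tested and 1 was called, higher in E861A. This count, and those of the single lists below, stand beside 0.506% of all tested genes. Of the 43, 15 had positive and 28 negative log2 fold changes (49.5% positive over all tested genes), with a median of -0.03, beside -0.00100 over all tested genes. Of the 43, 8 had genotypes without overlap, beside 14.2% of all tested genes. Among 12 cytosolic aminoacyl-tRNA synthetases, which charge transfer RNAs, 0 were called and values ran from -0.07 (*Wars*) to 0.07 (*Mars*), with upper interval ends of at most 1.14-fold. The core TGATGNAA was present in 5 of their 7 windows, beside 3.97% of all windows. It was also in 2 of 9 windows of the amino acid transporters, 2 of 9 of amino acid metabolism and 4 of 20 of the stress effectors. The eIF2 machinery held it in 1 of 10, and the ATF6 and XBP1 arms, described below, in 1 of 17. Of 10 tested genes of amino acid and one-carbon metabolism, 0 were called, between -0.10 (*Cbs*, of the transsulfuration pathway) and 0.12 (*Aldh1l2*, of mitochondrial folate metabolism). Of 13 tested stress effectors, 0 were called, between -0.22 (*Cdkn1a*, the cell cycle inhibitor p21) and 0.18 (*Nupr1*, a stress-induced chromatin protein). *Cdkn1a* was at 13.8, 14.5 and 13.5 CPM against 15.1, 16.96 and 16.7 CPM without overlap (adjusted p = 0.371). The secreted stress hormones *Gdf15* and *Fgf21* were at 0 to 4 counts in every library.

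The amino acid transporters held the 1 called gene of these lists. Of 8 tested, 1 was called (beside 0.506% of all tested genes), 5 had an unadjusted p-value under 0.05 (beside 9.01%) and 3 did not overlap (beside 14.2%), and the median log2 fold change was -0.11. *Slc7a11* (ENSMUSG00000027737; chromosome 3, 50168858 to 50247535), which exchanges cystine for glutamate and supplies glutathione synthesis, is that gene. It was at 84.4, 98.6 and 100.6 CPM in E861A and at 71.9, 70.5 and 77.7 CPM in wild type. All E861A libraries were above all wild-type libraries, and the log2 fold change was 0.37 ± 0.07, or 1.29-fold (interval 1.17 to 1.42), with an adjusted p-value of 0.0171 by edgeR. The call was lost without E861A replicate 3 (adjusted p = 0.223) and without wild-type replicate 1 (adjusted p = 0.0553), while the log2 fold change stayed between 0.32 and 0.44 over 16 alternatives. *Slc7a11* lies 39.3 megabases from *Adar* on chromosome 3, and *Phgdh*, of the pathway genes, 8.56 megabases from it. A part of sequence inherited together with the mutated *Adar* was not tested. The other 4 with an unadjusted p-value under 0.05 had lower means in E861A and were not called. They were *Slc38a2* (150 against 172 CPM, adjusted p = 0.441), which carries neutral amino acids, *Slc7a5* (32.5 against 37.2 CPM, 0.503), the large neutral amino acid exchanger, *Slc6a9* (23.9 against 27.1 CPM, 0.435), a glycine transporter, and *Slc7a1* (40.7 against 45.7 CPM, 0.550), which carries arginine and lysine. *Slc7a5* and *Slc7a1* are also abundant in brain endothelium, whose 5 markers summed to lower values in E861A (above), and the part of these cells in the values was not tested. Of 5 astrocyte markers 0 were called, and 4 had log2 fold changes of 0.00 to 0.04. The exception was the glutamate transporter gene *Slc1a2*, at 4167 against 3630 CPM (0.20 ± 0.06, adjusted p = 0.261 by edgeR, and 0.0374 under the replicate block).

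The other arms of the unfolded protein response, which ATF6 and XBP1 govern, were compared because unfolded protein activates them together with PERK. Of 19 tested chaperone and quality control genes, 0 were called, beside 0.506% of all tested genes, with a median of 0.03. An unadjusted edgeR p-value under 0.05 was found for 0, beside 9.01% of all tested genes. The 19 genes lay between -0.08 (*Ern1*, the sensor IRE1) and 0.16 (*Sdf2l1*, an endoplasmic reticulum chaperone partner).

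Immediate early genes, whose transcripts follow neuronal activity and which include partners and relatives of ATF3, gave mostly negative values. Of 16, 1 had a positive and 15 a negative log2 fold change, beside 49.5% positive over all tested genes, with a median of -0.22, and 1 was called, beside 0.506%. At an unadjusted edgeR p-value under 0.05 were 4 of the 16, beside 9.01%, and 3 had genotypes without overlap, beside 14.2%. *Fosb*, a *Fos* family factor, was at 12.6, 15.3 and 14.9 CPM in E861A and 19.2, 19.2 and 22.2 CPM in wild type, which is -0.50 ± 0.09 on the log2 scale with an adjusted p-value of 0.0137 by edgeR. The adjusted p-value was 0.0542 without E861A replicate 1, 0.105 without E861A replicate 3 and 0.106 without wild-type replicate 3. *Arc*, a synaptic gene at the other end of the list, was at 155 CPM in both genotypes. The list's median by library was highest in wild-type replicate 1 (0.23). It was lower in wild-type replicate 2 (-0.20) than in E861A replicate 3 (-0.09), so the libraries of the genotypes interleaved in this median.

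Interferon-stimulated genes served as a reference, with a list written when results of these libraries were known. Of 11 tested, 10 were called, all higher in E861A (among them *Ifit1*, *Ifit3*, *Usp18*, *Rsad2* and *Ifi27*), beside 0.506% of all tested genes. The median log2 fold change was 1.54. Genes of the list under 2 CPM in wild type were tested only because they passed the filter in E861A. With 2 CPM required in all 6 libraries, 4 were called, so the list describes these libraries and is no independent test. *Ifit1*, an inhibitor of foreign RNA translation, was at 9.70, 9.54 and 9.36 CPM in E861A and 2.07, 2.43 and 2.63 CPM in wild type, 4.01-fold (interval 3.39 to 4.76). *Xaf1* had the lowest value, 0.36 ± 0.13 on the log2 scale with an adjusted p-value of 0.460, the same size as that of *Eif2ak2*. *Ifi27*, an interferon-induced membrane protein, was 1.54-fold higher, and both this fold and that of *Ifit1* lay above the highest upper interval end of the 8 tested ATF4 pathway genes, 1.23 (*Chac1*).

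**Figure D4:**
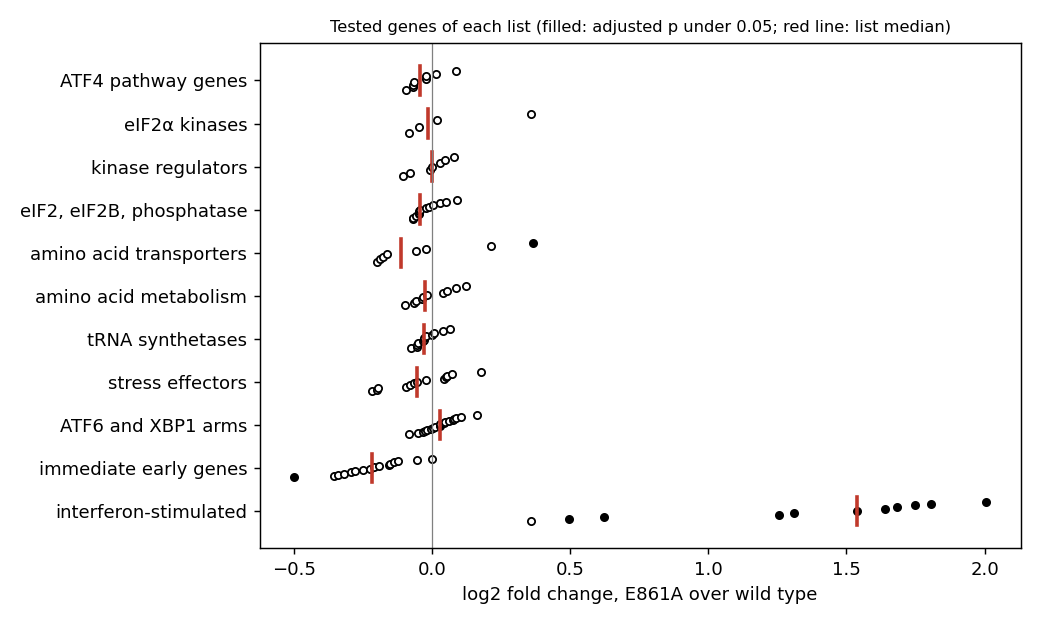
Log2 fold change of E861A over wild type (horizontal axis) for the tested genes of 11 lists; each point is a gene, filled where the adjusted p-value is under 0.05, and the red line is the list median. The ATF4 pathway genes lie between -0.09 and 0.09, 1 filled point stands among the amino acid transporters (Slc7a11, 0.37) and 1 among the immediate early genes (Fosb, -0.50), and 10 of 11 interferon-stimulated genes are filled.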

How the data were processed

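RNA was ribosome-depleted, and stranded libraries were sequenced as pairs. Per the labels and the study's methods, the authors trimmed reads with Trimmomatic 0.36, aligned them to mm9 with STAR 2.5.2a and deposited raw gene counts per library, not pooled. The strand setting of the counts is not given in the sources used here, so overlapping genes are uncertain. Deposited CPM values and the authors' table of fold changes and false discovery rates were not used.

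The test was edgeR 4.0.16 in R 4.3.3 (quasi-likelihood test, TMM scaling, factors 0.985 to 1.02, no covariates). Tested genes had at least 2 CPM in all 3 libraries of 1 genotype or more, p-values were Benjamini-Hochberg adjusted and genes under 0.05 are termed called. CPM values are TMM-scaled, and standard errors are the absolute log2 fold change over the root of F. The permutation test used log2(CPM + 0.5). *Trib3*, *Atf3* and *Ifih1* were read from a filterByExpr fit of 19366 genes, and *Gdf15* and *Fgf21* as counts. Coordinates come from GENCODE vM1, which matched all 37310 identifiers. Copies were sought by aligning transcripts to the genome with minimap2. Scripts were tested on simulated data.

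The titles share replicate numbers. Deviations of same-numbered libraries correlated at r = 0.227, 0.338 and 0.117, and the origin of this pairing is not stated. The main test was unpaired. The numbers entered only as a block in an alternative fit, which called 158 genes against 69 in the main test. The genes and lists were chosen with earlier results of these data known. Named are all 10 genes, the 4 kinases, and of each list the called and the extreme genes, with the interferon-stimulated ones given in part (some items are not reported here). Outside this rule, the 4 further transporters and the pair of secreted hormones were named after their values were seen. Alternatives were other scalings, filters and tests (DESeq2 1.42.0, limma-voom in limma 3.58.1, likelihood ratio), the block, and leaving out each library. Lhb and Hbb-b1 were not matched.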

Additional observations from a re-analysis of the deposited data

How the results depend on the processing

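The count of called ATF4 pathway genes was 0 under all 15 alternatives, and so was that of the kinase regulators, the eIF2 machinery, amino acid metabolism, the tRNA synthetases, the stress effectors and the ATF6 and XBP1 arms. Over all genes the count of 69 became 110 with filterByExpr, 376 without a filter, 42 with 2 CPM required in all 6 libraries, 139 by the likelihood ratio test, 158 with the replicate block and 42 to 113 when 1 library was left out. The count was 42 without E861A replicate 3, 113 without E861A replicate 2 and 108 without wild-type replicate 2. The paired fit changed no call in the gene lists beyond 1 marker each of astrocytes and choroid plexus, which it called. Without a filter, 1 kinase (*Eif2ak2*), 2 transporters and 3 immediate early genes were called, and DESeq2 and the likelihood ratio test each called 2 immediate early genes. Leaving out 1 library gave 0 to 1 transporters and 0 to 2 immediate early genes. With 2 CPM required in all 6 libraries, 4 interferon-stimulated genes were called, a filter that genes under 2 CPM in wild type fail. The median of the pathway genes was -0.088 to 0.025 when 1 library was left out, positive only without wild-type replicate 2. The values of *Slc7a11* and *Fosb* under these settings were added after the data were seen. Each had 16 alternatives, among them a ratio of mean CPM without a test. *Slc7a11* was called in 13 and *Fosb* in 12, and the call was lost in 5 over both genes. The sign of single genes changed in 11 of 222 alternatives, with 1 library left out, where the log2 fold change ran from -0.040 to 0.0086 for *Atf4*, -0.078 to 0.34 for *Trib3*, -0.23 to 0.065 for *Chac1*, -0.061 to 0.074 for *Sesn2*, -0.068 to 0.042 for *Phgdh* and -0.041 to 0.067 for *Eif2ak4*. The cause of these shifts was not tested. Low counts limit *Trib3* and *Atf3* most.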
